A study of Homo sapiens with 8 samples.

Results

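The transcription factor genes described here are 10 factors of luminal breast epithelium and their close relatives, chosen by name: GATA2, GATA3 and TRPS1 of the GATA family, TFAP2A, TFAP2B and TFAP2C of the AP-2 family, the Grainyhead genes GRHL1 and GRHL2, the T-box gene TBX3, and MYB. Each name matched 1 row of the 30434 genes in the count table. RNA sequencing of SKBR3 cells, an established line from a human breast carcinoma with amplified ERBB2 (HER2), measured them. The 4 control libraries came from cells labelled wild type, and the 4 knockdown libraries from a stable line carrying lentiviral short hairpin RNAs against FOXA1, a pioneer transcription factor of luminal cells; the study asked how FOXA1 acts on HER2-related pathways. Both groups grew in the same serum-containing medium, and the labels do not say whether the controls carried a control vector, whether the stable line is a clone or a pool, or whether the replicates are separate cultures. The p-values therefore measure the spread between these libraries, which may be technical.

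GATA factors bind GATA motifs through zinc fingers. GATA3 is a main regulator of luminal differentiation in the mammary gland and works alongside FOXA1 and the oestrogen receptor, while TRPS1 is an atypical member of the family that represses transcription. AP-2 factors bind GC-rich sites, among them sites at ERBB2, and TFAP2C is widely expressed in luminal tumours. Grainyhead factors maintain epithelial junction genes, TBX3 is a repressor needed for mammary development, and MYB is a proliferation-linked factor known from blood cells and luminal breast cancer.

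FOXA1 itself fell from 191 CPM ± 1.65 to 3.95 CPM ± 0.340 (CPM, counts scaled to library total; SD, n = 4 each), or 2.06% of the control level, and the groups of 4 libraries did not overlap. Library totals ran from 19087878 to 23786684 counts, at which the detection floor of 3 counts equals 0.123 to 0.153 CPM. Control replicate 3 stood apart: its chi-square per degree of freedom against the other controls was between 4.81 and 6.21, where the remaining control pairs gave 2.16 to 2.38. Markers of luminal epithelium summed to between 9613 and 10780.4 CPM in control and between 9962 and 10883 CPM in knockdown, but its members moved apart. KRT19 fell from 2642 CPM ± 133 to 722 CPM ± 36.2, while KRT8 rose from 4513 CPM ± 218 to 5612 CPM ± 362 and KRT18 from 2309 CPM ± 152 to 3452 CPM ± 135 (SD, n = 4). Of the 5 blood cell markers, the 3 with a row summed to at most 0.655 CPM in any library, with PTPRC and SPI1 at 3 or fewer counts throughout. The 4 fibroblast markers summed to 5.21 to 6.97 CPM in control and 6.20 to 7.65 CPM in knockdown. The 3 endothelial markers summed to 20.7 to 22.1 CPM in control and 19.7 to 22.4 CPM in knockdown, mostly CDH5. In these lists PDGFRB and CDH5 were called higher and COL1A1 and VWF lower. The 5 basal markers, most of whose knockdown level was TP63, summed to 3.25 to 4.22 CPM in control and 9.08 to 10.4 CPM in knockdown. They did not move together. Of the 4 tested, TP63 was the 1 called higher, and KRT17 and ACTA2 were the 2 lower (log2 fold changes -2.73 and -4.19). The part of these markers in the results was not tested. In bulk RNA, fewer cells expressing a gene and less RNA per cell cannot be told apart.

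Promoter sequence was taken from RefSeq (GRCh38.p14) as the 250 bases before each annotated start. Windows of 6 of the 10 genes were used, 13 in all. Shown here are windows of both GATA genes that rose and of MYB, which fell; all were picked after their motif matches were seen. Capitals mark matches, on either strand, to the forkhead letters TGTTTAC and their variant TGTTTGC or the AP-2 letters GCCNNNGGC. The window of GATA3 at its outermost start lies at chr10:8045083-8045332 on the plus strand, 5′ to 3′ along the gene. A window at an inner GATA3 start, chr10:8054438-8054652 on the plus strand, is shown without its last 35 bases, which lie in a GENCODE 29 exon. The GATA2 window lies at chr3:128493202-128493451 on the minus strand and the MYB window at chr6:135181058-135181307 on the plus strand.
GATA3 outer start: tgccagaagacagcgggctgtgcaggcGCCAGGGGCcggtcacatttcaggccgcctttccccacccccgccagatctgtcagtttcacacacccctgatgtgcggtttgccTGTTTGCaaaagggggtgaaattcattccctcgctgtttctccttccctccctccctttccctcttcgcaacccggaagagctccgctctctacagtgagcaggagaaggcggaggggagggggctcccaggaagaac
GATA3 inner start: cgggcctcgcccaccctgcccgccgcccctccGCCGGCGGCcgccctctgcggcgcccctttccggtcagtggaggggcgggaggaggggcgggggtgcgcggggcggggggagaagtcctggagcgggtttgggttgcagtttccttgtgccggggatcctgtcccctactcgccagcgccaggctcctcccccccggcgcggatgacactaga
GATA2 outer start: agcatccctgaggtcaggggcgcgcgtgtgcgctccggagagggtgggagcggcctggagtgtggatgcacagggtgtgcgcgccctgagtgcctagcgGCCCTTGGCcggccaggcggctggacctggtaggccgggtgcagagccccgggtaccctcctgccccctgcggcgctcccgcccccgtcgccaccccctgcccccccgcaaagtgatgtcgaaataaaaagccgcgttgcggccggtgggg
MYB: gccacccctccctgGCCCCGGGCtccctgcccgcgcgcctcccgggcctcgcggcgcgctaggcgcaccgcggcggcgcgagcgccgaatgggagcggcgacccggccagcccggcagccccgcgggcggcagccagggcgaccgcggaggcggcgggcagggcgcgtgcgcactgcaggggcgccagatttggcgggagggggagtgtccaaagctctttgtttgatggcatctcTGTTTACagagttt

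The forkhead letters TGTTTGC stood in the outer GATA3 window, beginning 138 bases before the start, and TGTTTAC stood in the MYB window, beginning 14 bases before it. None of the other 11 member windows held either. Among all 35116 promoter windows of the table, 3.23% held TGTTTGC and 2.98% held TGTTTAC. The AP-2 letters GCCNNNGGC, in 19.8% of all windows, occurred in both GATA2 windows, in 3 of the 6 GATA3 windows and in the MYB window. All fixed letters of this string are G or C. The windows that held it were 60.8% to 75.6% G and C, beside a median of 58% over all windows. The GRHL1 window, at 81.6%, did not hold it. The 19.8% was not matched for G and C, so these shares were not compared. CAACNG, in 27% of all windows, occurred once each in the inner GATA2 window, an outer TFAP2A window and the TFAP2B window. No member window held the GATA letters AGATAA (9.17% of all windows) or their variant TGATAA (6.66%). Nor did any hold the Grainyhead letters AACCGGTT (0.117%), their looser form AACNNGTT, which includes them (3%), or the T-box letters TCACACCT (0.786%). TRPS1, GRHL2, TFAP2C and TBX3 had no window among the 13 and were not scanned, so these results do not cover them. A match is a string of letters and not a measured binding site, and the counts do not show which start was used.

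None of the 10 was removed by the filter on low counts, and edgeR's quasi-likelihood test called all 10 at an adjusted p under 0.05, with 5 higher and 5 lower in knockdown. The background is high: 77.1% of the 16430 genes tested were called, 39.4% higher and 37.7% lower. The groups did not overlap in CPM for any of the 10, against 72.0% of all genes tested (36.9% with knockdown higher and 35% with it lower), so neither count sets these genes apart. Changes that were called and reached 2-fold numbered 5, where 28.3% of all genes tested had one. GATA3 and TBX3 were the 2 higher (14.9% of all genes) and TRPS1, TFAP2B and MYB the 3 lower (13.4%). Over the 10 genes the median log2 fold change was 0.0070, beside 0.019 over all genes tested, and the median size of the change regardless of sign was 1.02 beside 0.51. The 10 were chosen with earlier results of these data known, so these comparisons describe them and do not test them as a set. For each gene the exact two-sided permutation p was 0.0286, the smallest that 4 libraries against 4 can give.

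**Figure D1:**
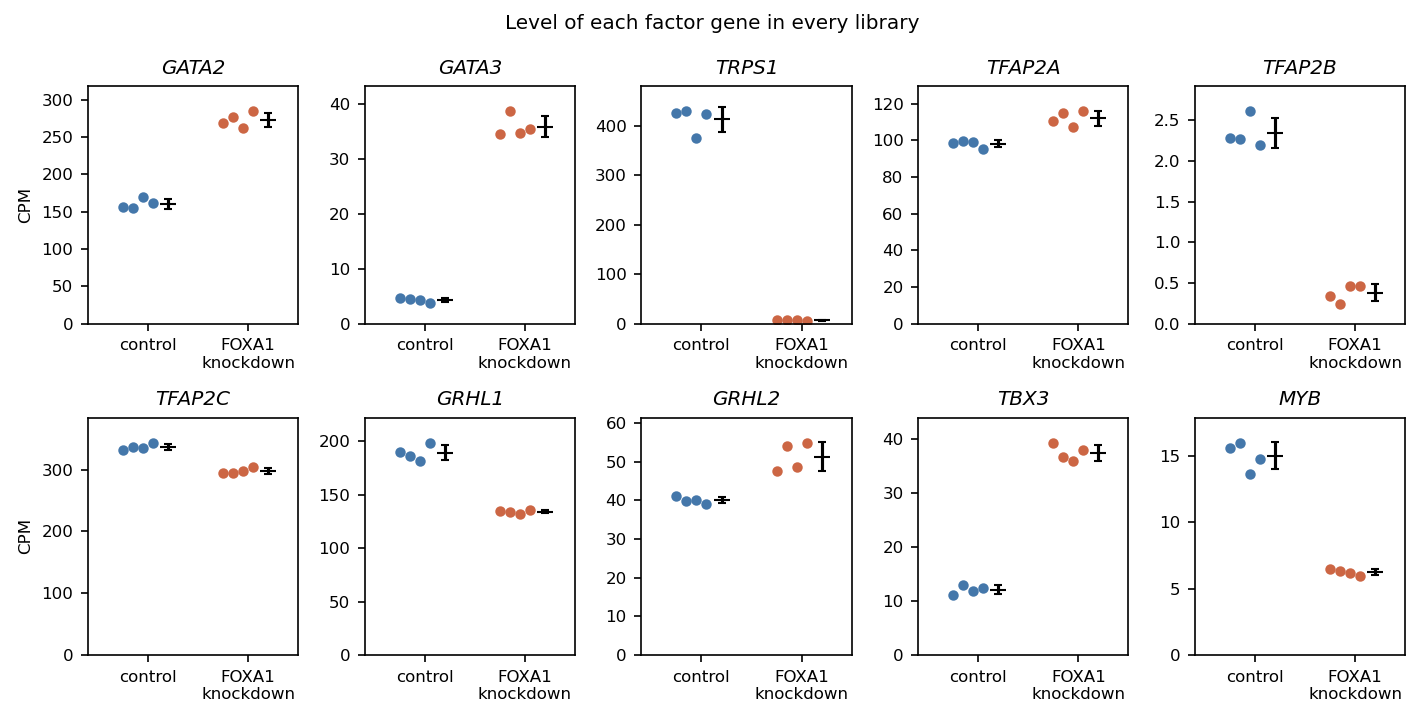
Level of each of the 10 factor genes, in CPM on a linear axis from 0, with 1 point per library and the mean with its SD as a bar beside the points (n = 4 per group). The groups do not overlap for any gene; TRPS1 drops from 375 CPM or more to below 7 CPM, and GATA3 rises from below 5 CPM to above 34 CPM.

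Among the GATA genes TRPS1 fell and GATA2 and GATA3 rose. TRPS1 (ENSG00000104447.13, chromosome 8, 115408496 to 115809673, minus strand, GENCODE 29 on GRCh38) measured 426, 429, 375 and 423 CPM in control replicates 1 to 4 and 6.96, 6.67, 6.97 and 5.54 CPM in knockdown replicates 1 to 4. Every knockdown library lay far below every control, and control replicate 3 was the lowest control. The mean fell from 414 CPM ± 25.5 to 6.54 CPM ± 0.675 (mean ± SD, n = 4 per group), 63.3-fold, which left 1.58% of the control level. Its log2 fold change was -5.98 (SE 0.0906, edgeR adjusted p of 9.44e-26), further from 0 than that of FOXA1 itself, at -5.60 (SE 0.063). Among the 16430 genes tested, TRPS1 ranked 169 from the strongest fall and FOXA1 ranked 199. Without control replicate 3 the log2 fold change of TRPS1 was -6.03.

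Of the genes flanking TRPS1, SYBU fell further and EIF3H far less. EIF3H, the nearest tested protein-coding gene on the side of higher coordinates at 832457 bp, went from 893 CPM ± 20.5 to 676 CPM ± 6.97 (mean ± SD, n = 4 per group), -0.40 on the log2 scale. On the other side the nearest was SYBU, 5716705 bp away, which went from 82.9 CPM ± 2.14 to 0.623 CPM ± 0.122 (mean ± SD, n = 4 per group), -7.06 on the log2 scale with an edgeR adjusted p of 2.6e-28. The median log2 fold change of the 50 tested genes nearest TRPS1 on its chromosome was -0.22.

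GATA3 (ENSG00000107485.18, chromosome 10, 8045378 to 8075203, plus strand) measured 4.57, 4.53, 4.36 and 3.66 CPM in control and 34.6, 38.7, 34.7 and 35.4 CPM in knockdown. The lowest knockdown library was above the highest control by a wide margin, and the knockdown libraries lay close together. The mean rose 8.37-fold, from 4.28 CPM ± 0.426 to 35.8 CPM ± 1.92 (mean ± SD, n = 4 per group). The edgeR fit gave 3.07 on the log2 scale (SE 0.0839) with an adjusted p of 4.19e-22. Its 50 nearest tested genes had a median of 0.62, and with that regional shift taken out the log2 fold change of GATA3 was 2.45. GATA3-AS1, an antisense transcript within the GATA3 locus that shares no exon base with it, had 0 counts in all controls and 4 to 13 counts after knockdown, too few to be tested.

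GATA2, better known from blood stem cells and endothelium, was the most abundant of the 3 in knockdown. GATA2 (ENSG00000179348.12, chromosome 3, 128479427 to 128493185, minus strand) measured 156, 155, 169 and 162 CPM in control and 269, 277, 262 and 284 CPM in knockdown. All 4 knockdown libraries were higher than every control, with a mean of 161 CPM ± 6.57 against 273 CPM ± 9.57 (mean ± SD, n = 4 per group). The edgeR fit gave 0.77 on the log2 scale (SE 0.0387) with an adjusted p of 6.96e-16. GATA2-AS1, whose locus overlaps GATA2 on the opposite strand, also rose, from 24.02 CPM ± 0.949 to 33.8 CPM ± 1.47 (mean ± SD, n = 4 per group), 0.49 on the log2 scale with an edgeR adjusted p of 4.71e-09. Use of strand in the counting is not given in the sources used here; in GENCODE 29 the 2 genes share no exon base.

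Levels of different genes were compared per kilobase of exon. On that scale TRPS1 made up 50.03% ± 2.52 of the sum of the 3 GATA genes in control, GATA2 48.3% ± 2.51 and GATA3 1.67% ± 0.176 (SD, n = 4). In knockdown GATA2 made up 84.8% ± 0.640, GATA3 14.4% ± 0.589 and TRPS1 0.819% ± 0.106 (SD, n = 4). The makeup of these 3 genes thus changed in every library. Their sum was 74.6 CPM per kb ± 1.02 in control and 72.3 CPM per kb ± 2.40 in knockdown (mean ± SD, n = 4 per group). GATA5 and GATA6 were not part of it. The libraries' sums overlapped, from 73.2 to 75.6 in control and from 69.6 to 74.6 in knockdown. With the longest transcript as the length, the sums were 90.5 CPM per kb ± 0.945 and 93.3 CPM per kb ± 3.11 (mean ± SD, n = 4 per group), so even the sign of their difference depends on the length used.

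**Figure D2:**
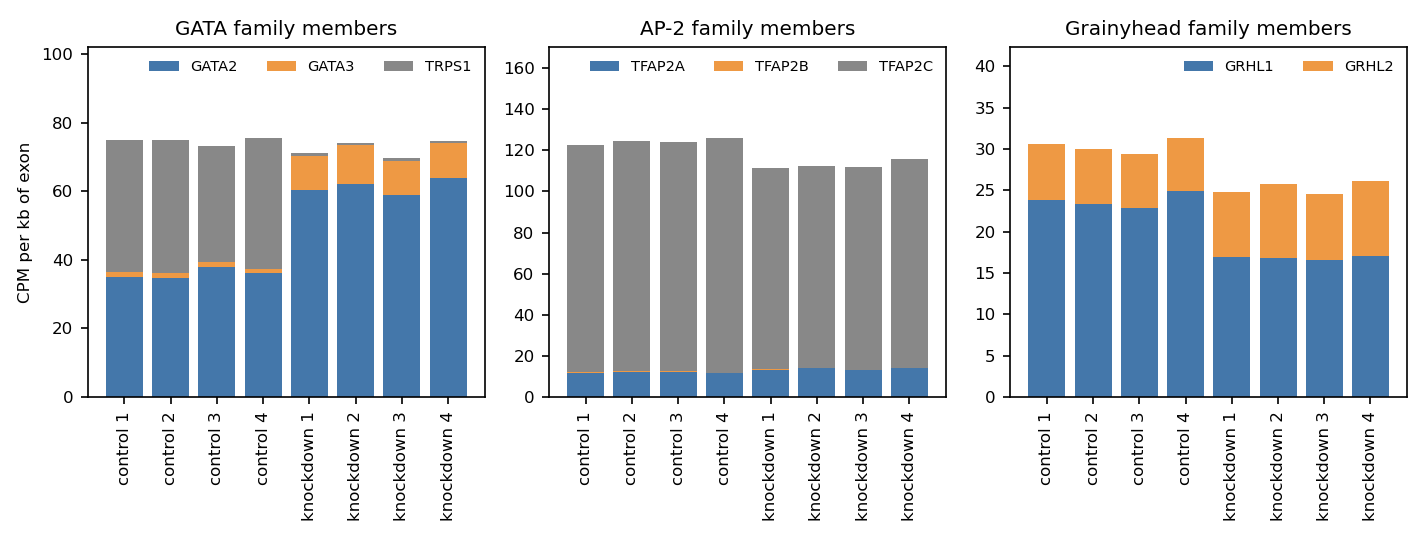
Level per kilobase of exon (CPM per kb, linear axis from 0) of the factor genes from 3 families, stacked by gene. Bars are the 8 libraries. In the GATA panel the TRPS1 segment, 50.03% of the control sum, is reduced to 0.819% in knockdown as those of GATA2 and GATA3 grow; in the AP-2 panel TFAP2C makes up most of every bar.

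The AP-2 genes that carry most of the family's RNA moved little. TFAP2C (ENSG00000087510.7, chromosome 20, 56629302 to 56639283, plus strand) measured 331, 336, 335 and 343 CPM in control and 295, 295, 297 and 305 CPM in knockdown. The groups were separate but close, with means of 337 CPM ± 4.92 and 298 CPM ± 4.76 (mean ± SD, n = 4 per group). The edgeR fit gave -0.18 on the log2 scale (SE 0.0155) with an adjusted p of 1.71e-05. Genes around TFAP2C were also lower, with a median of -0.14 over the 50 nearest. With that shift taken out its log2 fold change was -0.04 and was no longer called (edgeR adjusted p of 0.28).

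TFAP2A, which is also expressed in neural crest and skin, went slightly the other way. TFAP2A (ENSG00000137203.14, chromosome 6, 10393186 to 10419659, minus strand) measured 98.4, 99.9, 99.3 and 95.3 CPM in control and 110.3, 115, 107 and 116 CPM in knockdown. Every knockdown library exceeded every control, by a mean difference that was 14% of the control level (98.2 CPM ± 2.05 against 112 CPM ± 4.03, SD, n = 4 per group; log2 fold change 0.19, SE 0.0302, edgeR adjusted p of 7.6e-05). Its 50 nearest tested genes had a median of 0.36, and with that shift taken out the direction turned and TFAP2A was called lower, at -0.17 (edgeR adjusted p of 0.000293). TFAP2A shares 941 exon bases with the antisense gene TFAP2A-AS2, which rose from 2.61 CPM ± 0.153 to 4.58 CPM ± 0.194 (mean ± SD, n = 4 per group), 0.81 on the log2 scale, and 438 with TFAP2A-AS1, so without strand, reads there cannot be assigned to 1 gene.

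TFAP2B was scarce. TFAP2B (ENSG00000008196.13, chromosome 6, 50818723 to 50847613, plus strand) had 50, 50, 55 and 51 counts in control and 8, 6, 9 and 10 in knockdown, all above the floor of 3 counts. Its mean fell from 2.34 CPM ± 0.184 to 0.376 CPM ± 0.104 (mean ± SD, n = 4 per group), 6.22-fold, with a log2 fold change of -2.64 (SE 0.214, edgeR adjusted p of 1.19e-10). It had the widest relative spread of the 10 genes, with a coefficient of variation of 27.6% in knockdown, and it fell below the filter when a mean of at least 50 counts was required.

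Per kilobase of exon, TFAP2C made up 90.1% ± 0.297 of the AP-2 sum in control and 88.0% ± 0.325 in knockdown, and TFAP2A 9.55% ± 0.282 and 11.99% ± 0.336 (mean ± SD, n = 4 per group). The sum of the 3 AP-2 genes was 124 CPM per kb ± 1.46 in control and 113 CPM per kb ± 1.88 in knockdown (mean ± SD, n = 4 per group), with no overlap between the groups.

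The Grainyhead genes diverged. GRHL1 (ENSG00000134317.18, chromosome 2, 9951693 to 10002277, plus strand) measured 189.6, 186, 182 and 198 CPM in control and 135, 134, 132 and 136 CPM in knockdown. The knockdown libraries were nearly level with each other and all below the controls, with means of 189 CPM ± 6.98 and 134 CPM ± 1.78 (mean ± SD, n = 4 per group). The edgeR fit gave -0.49 on the log2 scale (SE 0.0281) with an adjusted p of 2.59e-12. Its neighbours went against it: the 50 nearest tested genes had a median of 0.18. TAF1B, 17277 bp away, had a log2 fold change of 0.72 and KLF11, 40572 bp away on the other side, one of 0.42.

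GRHL2, the family member best known for holding epithelial cells in their state, rose. GRHL2 (ENSG00000083307.12, chromosome 8, 101492432 to 101669726, plus strand) measured 41.0, 39.8, 40.0 and 39.1 CPM in control and 47.5, 54.0, 48.5 and 54.8 CPM in knockdown. Knockdown replicates 2 and 4 were higher than 1 and 3, and all were above the controls. The means were 40.0 CPM ± 0.791 and 51.2 CPM ± 3.74 (mean ± SD, n = 4 per group). The edgeR fit gave 0.36 on the log2 scale (SE 0.0546) with an adjusted p of 6.5e-07. Genes around GRHL2 were lower, with a median of -0.40 over the 50 nearest, and relative to them its log2 fold change was 0.76. GRHL2 went from 21.8% ± 0.815 to 33.4% ± 1.496 of the sum of GRHL1 and GRHL2 per kilobase, while that sum went from 30.3 CPM per kb ± 0.831 to 25.3 CPM per kb ± 0.756 (mean ± SD, n = 4 per group).

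TBX3 and MYB moved in opposite directions. TBX3 (ENSG00000135111.16, chromosome 12, 114670254 to 114684164, minus strand) measured 11.1, 13.1, 11.9 and 12.4 CPM in control and 39.3, 36.7, 36.0 and 38.0 CPM in knockdown. Its mean rose 3.10-fold with no overlap, from 12.1 CPM ± 0.848 to 37.5 CPM ± 1.46 (mean ± SD, n = 4 per group). The edgeR fit gave 1.63 on the log2 scale (SE 0.058) with an adjusted p of 1.83e-18. The 50 nearest tested genes had a median of -0.05, and MED13L, 1269708 bp away and the nearest on the side of higher coordinates, had a log2 fold change of -0.84.

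MYB (ENSG00000118513.19, chromosome 6, 135181315 to 135219173, plus strand) measured 15.5, 15.96, 13.7 and 14.8 CPM in control and 6.49, 6.30, 6.15 and 5.96 CPM in knockdown. All knockdown libraries were lower, and control replicate 3 was again the lowest control. The mean went from 14.98 CPM ± 1.01 to 6.23 CPM ± 0.226 (mean ± SD, n = 4 per group), leaving 41.6% (log2 fold change -1.26, SE 0.0558, edgeR adjusted p of 1.65e-13). Its immediate neighbours HBS1L and AHI1, at 78259 and 64359 bp, had log2 fold changes of -0.19 and 0.35.

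**Figure D3:**
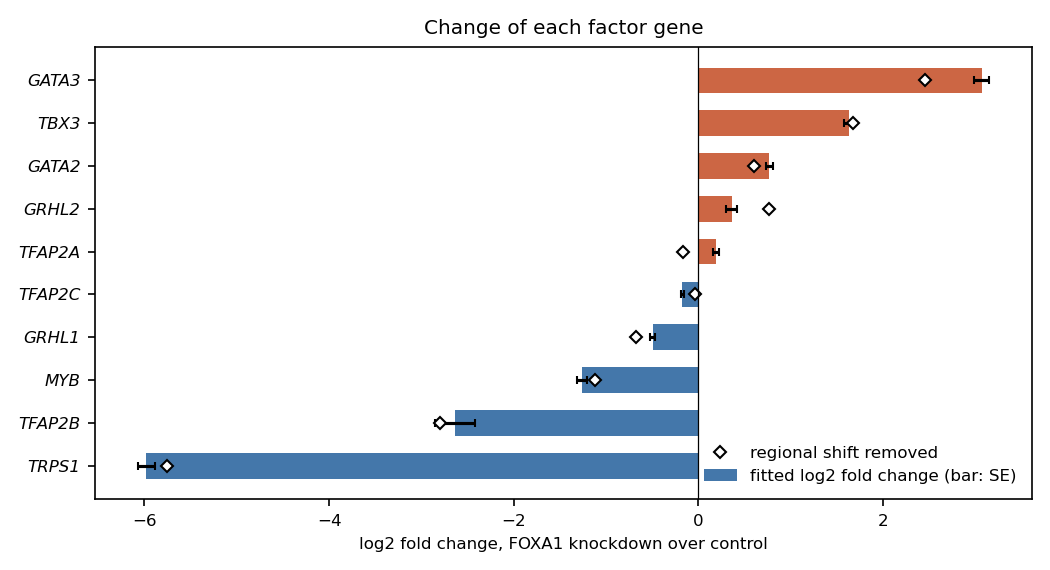
Fitted log2 fold change of each factor gene, knockdown over control, as bars with the SE, and, as diamonds, the same after the median change of the 50 nearest tested genes was taken out. TRPS1 is lowest at -5.98 and GATA3 highest at 3.07; the diamond of TFAP2A lies on the other side of 0, at -0.17.

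Ordered by level per kilobase of exon, control libraries had TFAP2C first at 112 CPM per kb ± 1.64, then TRPS1 at 37.3 ± 2.31 and GATA2 at 36.0 ± 1.47, whose libraries overlapped, then GRHL1, TFAP2A, GRHL2, MYB, TBX3, GATA3 and TFAP2B. In knockdown TFAP2C was again first at 99.2 CPM per kb ± 1.58, followed by GATA2 at 61.3 ± 2.15, GRHL1, TFAP2A, GATA3, GRHL2, TBX3, MYB, TRPS1 and TFAP2B (SD, n = 4 throughout). Apart from TRPS1 and GATA2 in control, no neighbours in either order overlapped. GATA3 went from place 9 to place 5, and TRPS1 from place 2 to place 9. With the longest transcript as the length, GATA2 was ahead of TRPS1 in control and TFAP2A ahead of GRHL1 in knockdown, and the other places were as given.

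By the smallest distance between log2 CPM profiles over the 8 libraries, each centred on its mean, the genes most like GATA3 out of 12420 ranked (mean count 50 or more) were CASKIN1, SYT17 and CILP2 (distances 0.236, 0.242 and 0.253). The nearest to TRPS1 were CXADR, RAB25 and SELENBP1 (0.371, 0.429 and 0.437). With 2 groups, such likeness mainly reflects the size of the difference between them: SYT17 went from 4.02 to 35.3 CPM and SELENBP1 from 281 to 4.89 CPM.

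The relatives outside the 10 genes were also examined, from lists written with earlier results of these data known. Over all genes tested, 77.1% were called, 39.4% higher and 37.7% lower, with a median log2 fold change of 0.019, and each list count is given beside that background and without a test. Of 11 relatives, 7 were tested, of which 5 were higher and 2 lower (median 1.504). GATA5, a factor of heart and gut endoderm, rose from 0.249 CPM ± 0.0831 to 10.1 CPM ± 1.30, and GATA6 fell from 10.9 CPM ± 0.849 to 2.92 CPM ± 0.363 (mean ± SD, n = 4 per group; log2 fold changes 5.32 and -1.91, adjusted p of 6.98e-19 and 1.16e-14 by edgeR). TBX2, the closest relative of TBX3, had 0 or 1 count per control and 67 to 101 counts per knockdown library, at least 27.4-fold higher against 3 counts in the smallest control library. GRHL3 rose from 2.82 CPM ± 0.449 to 8.002 CPM ± 1.05 and MYBL2, a cell cycle relative of MYB, from 283 CPM ± 16.7 to 431 CPM ± 14.6 (mean ± SD, n = 4 per group). MYBL1 was the other lower call, at -0.21 (edgeR adjusted p of 0.0432), with overlapping groups. That call was lost in 13 of 19 alternatives, and the call of GATA6 in 0.

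Among 6 cofactors of GATA proteins, 4 were tested and 3 were higher (median log2 fold change 1.07). ZFPM1 (FOG1), which binds GATA factors directly, rose from 1.37 CPM ± 0.411 to 6.67 CPM ± 0.701, and LMO4, a LIM-only adaptor, from 19.3 CPM ± 0.756 to 77.2 CPM ± 1.89 (mean ± SD, n = 4 per group; log2 fold changes 2.28 and 2.00). LDB1 was the other higher call, at only 0.15 (edgeR adjusted p of 0.012), with overlapping groups. Without control replicate 1, without control replicate 2 or at the threshold of 0.01, 2 cofactors in place of 3 were called higher. ZFPM2 had at most 4 counts in any library. All 13 subunits of NuRD, a co-repressor complex described as a partner of TRPS1, were tested, with 7 higher and 4 lower (median 0.32). The largest of these changes were small, 0.79 for the histone-binding subunit RBBP4 and -0.57 for the remodelling ATPase CHD4.

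The 10 regulators of AP-2 factors had 5 called higher and 4 lower (median 0.05). CITED4, a coactivator of AP-2, rose from 19.5 CPM ± 3.51 to 61.8 CPM ± 2.09, while its relative CITED1 fell from 2.37 CPM ± 0.400 to 0.236 CPM ± 0.198 (mean ± SD, n = 4 per group; log2 fold changes 1.66 and -3.36). WWOX, which binds AP-2 in the cytoplasm, fell to 2.88 CPM ± 0.367 from 10.0 CPM ± 0.156 (mean ± SD, n = 4 per group).

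Of 8 genes described as AP-2 targets, 5 were tested, with 4 lower and 1 higher (median -2.45), where 37.7% of all genes were called lower. Without the filter on low counts 4 were called lower and 4 higher. MUC1, a luminal membrane mucin, fell from 34.4 CPM ± 3.57 to 0.730 CPM ± 0.209 (mean ± SD, n = 4 per group), -5.53 on the log2 scale with an edgeR adjusted p of 1.31e-20. ERBB2 and the cell cycle inhibitor CDKN1A had log2 fold changes of -2.45 and -2.24, and ERBB3 was the exception at 0.44. ESR1, the oestrogen receptor, had 28 to 35 counts in control and at most 2 in knockdown, at least 8.93-fold lower. RET, KIT and CDH1 had at most 13 counts in any library.

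Epithelial genes linked to Grainyhead factors, 12 tested of 16, were lower in 6 cases and higher in 3 (median -0.32). The small GTPase gene RAB25 fell from 153 CPM ± 7.43 to 2.42 CPM ± 0.265 (mean ± SD, n = 4 per group), -5.97 on the log2 scale. The protease gene ST14 and its inhibitor SPINT1 had log2 fold changes of -1.24 and -1.11. EPCAM rose by 0.33 on the log2 scale. CLDN4 was called higher at only 0.08 (edgeR adjusted p of 0.0388), with overlapping groups. The list's count of 3 higher calls was not stable. It was 2 with RLE scaling, DESeq2, the replicate block or the threshold of 0.01. Leaving out control replicate 1, 2 or 4, or knockdown replicate 1 or 4, also gave 2. Scaling by library size only, no filter on low counts, or the regional shift removed gave 4. CLDN3, OVOL1 and ESRP1 were not called, at 0.03, 0.02 and -0.04. CDH1, the E-cadherin gene, had 1 to 3 counts in control and 7 to 13 in knockdown, below the filter, and the repressor gene ZEB2 had at most 1 count.

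Of 6 genes known as MYB targets, 5 were tested, with 4 higher and 1 lower (median 0.81), where 39.4% of all genes were called higher. ADA rose from 0.319 CPM ± 0.0764 to 9.45 CPM ± 0.428 (mean ± SD, n = 4 per group), 4.87 on the log2 scale, and BCL2, MYC and CCNB1 had log2 fold changes of 0.81, 0.64 and 0.96. CD34 was lower, at -0.76 (edgeR adjusted p of 0.0054), with overlapping groups, and was not tested under the filter of a mean of 50 counts. Of the genes TBX3 is known to repress, CDKN2A was higher at 0.25 and CDKN1A was lower at -2.24.

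Other luminal factors, 10 tested of 12, were lower in 7 cases and higher in 2, with a median log2 fold change of -2.75 beside 0.019 over all genes. SPDEF fell from 200.1 CPM ± 17.3 to 0.397 CPM ± 0.189, XBP1 from 686 CPM ± 23.0 to 54.9 CPM ± 1.67, and ELF5 from 8.01 CPM ± 1.07 to 0.195 CPM ± 0.0818 (mean ± SD, n = 4 per group). The rises were in LMX1B, at 4.00 on the log2 scale, and KLF5, at 1.48. PGR had at most 4 in any library. Of 8 basal factors, 5 were tested and 4 were higher (median 2.24): TP63 rose from 0.147 CPM ± 0.0429 to 7.85 CPM ± 0.551 and FOXC1 from 0.191 CPM ± 0.104 to 8.85 CPM ± 0.347 (mean ± SD, n = 4 per group). SOX9 was lower, at -4.31, and EN1 had at most 4 counts in any library. The basal keratin genes did not share one direction: KRT5 was not called (0.19, edgeR adjusted p of 0.451), KRT17 was lower (-2.73) and KRT14 had at most 7 counts.

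**Figure D4:**
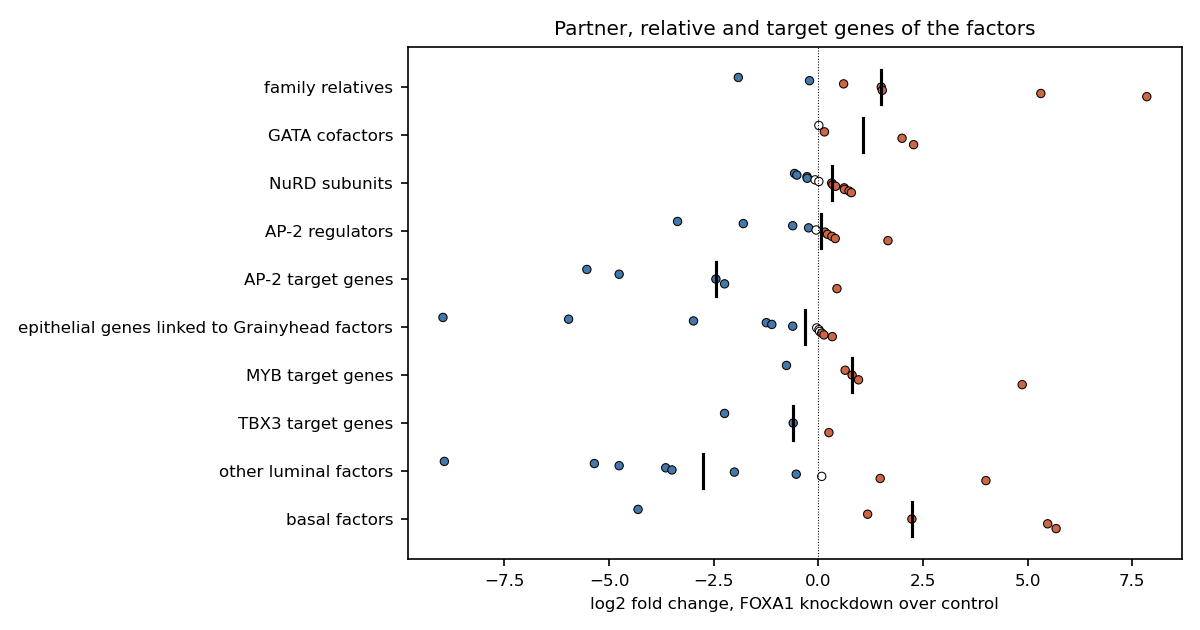
Log2 fold change, knockdown over control, of every tested gene in 10 lists of relatives, cofactors, regulators and targets of the factors. Each point is a gene, red where called higher, blue where called lower and white where not called, and the vertical bars are list medians, lowest at -2.75 for the other luminal factors and highest at 2.24 for the basal factors.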

How the data were processed

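The deposited table holds whole-number counts for each gene, with a gene symbol column, for 8 libraries of paired 101 bp reads. FastQC, Salmon 1.9, DESeq2 (version given as 3.16) and genome build hg38 are named in the submitters' processing notes without a role; the annotation release, use of strand and any rounding of Salmon estimates are not given in the sources used here. Groups came from the sample titles. Members were matched by symbol; members and gene lists were chosen with earlier results of these data known.

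Counts were tested in R 4.3.3 with edgeR 4.0.16: filterByExpr (minimum 10 counts, total 15) left 16430 genes, TMM factors ran from 0.966 to 1.04, and glmQLFit with robust estimation and glmQLFTest compared knockdown with control, with Benjamini-Hochberg adjustment over all genes and a threshold of 0.05. CPM used TMM-scaled totals, and SEs came from log2 CPM with 0.5 added. The script was tested on simulated counts in which 200 of 16430 genes changed, all with the common dispersion. It recovered 50 of 68 genes changed by 0.5 on the log2 scale, 56 of 59 changed by 1 and 69 of 69 changed by 2. Of its 182 calls, 7 were false. Changes smaller than 0.5 were not simulated, and a far larger share of genes was called in the real data. Floors of 3 counts cover counting error only. Positions and exon lengths come from GENCODE 29. List genes named are the largest called rise and fall of each list and those at 3 or fewer counts in 1 group only, with the 3 genes most like GATA3 and TRPS1; others were picked after their values were seen, and some genes the rule names are not reported here. Alternatives were other scalings, filters, DESeq2 1.42.0, limma 3.58.1 voom, no robust estimation, a replicate block, a stricter threshold of 0.01, a regional shift removed, another gene length and leaving out each library. Same-numbered libraries were not taken as pairs.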

Additional observations from a re-analysis of the deposited data

Results flagged for a closer look

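In each group of 4 libraries, the highest and lowest library were examined, and one counted as standing apart where its distance to the next, as a ratio to the whole range, exceeded Dixon's critical value for 4 values. Over 22 groups of values (10 factor genes and FOXA1, in control and knockdown), 1 stood apart, where chance gives about 1.1 (1 group in 20). TRPS1 was low in control replicate 3, at 375 CPM against 423 to 429 CPM in the other controls (ratio 0.890). That library also stood apart from the other controls over all genes. Without it the log2 fold change of TRPS1 was -6.03. The cause was not tested.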

How the results depend on the processing

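Across 19 alternatives, 187 of 189 fold changes of the 10 genes kept their direction and stayed on the same side of the threshold. Both exceptions came with the regional shift removed: TFAP2A reversed to -0.17 and TFAP2C, at -0.04, was no longer called; the cause was not tested. TFAP2B had no value under the filter of a mean of 50 counts. Leaving out each library in turn kept TRPS1 between -6.03 and -5.91, GATA3 between 2.99 and 3.10, and all 10 genes called, with between 12494 and 12865 calls over all genes. Other scalings moved the median of all genes by at most 0.083, which is not small beside the changes of TFAP2C and TFAP2A. Scaled by library size only, TFAP2C was at -0.09 in place of -0.18 and TFAP2A at 0.27 in place of 0.19, both still called. Deviations of same-numbered libraries correlated at between -0.0355 and 0.168, not above 0.1 in every pair, so the numbers were not taken to pair the libraries; with the replicate block 12453 genes were called and all 10 genes stayed called, 5 higher and 5 lower. Without a filter on low counts, 4 AP-2 targets in place of 1 were called higher. Depth limits TFAP2B and the list genes near the floor. With the longest transcript as the length, TFAP2A made up 17.9% of the AP-2 sum in control and 21.9% in knockdown.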
